A study of Neurospora crassa with 86 samples.

Results

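In the filamentous fungus Neurospora crassa, 47 genes were highest on tryptophan among all media given to wild type, out of 9598 entries in the authors' joint expression table. A gene was taken when its mean log2(FPKM + 1) on 50 mM tryptophan was the highest of the 14 wild type groups and stood at least 1 above the second highest group. Its mean on tryptophan also had to reach 5 FPKM, where FPKM is fragments per kilobase of gene, scaled to the mapped fragments of the library. The rule found 50 genes, and 3 of them, qa-X (NCU06022), qa-4 (NCU06024) and qa-3 (NCU06025), were left out because the quinate cluster from NCU06022 to NCU06028 was set aside. The members were thus chosen by their wild type means, so every wild type value below is a description, with no test. Only 3 members have a symbol, ncw-5 (NCU00716) and ncw-6 (NCU00586), named as non-anchored cell wall proteins, and ccg-14 (NCU07787), a clock-controlled gene.

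The series holds RNA-seq of mycelium in 86 libraries from 27 groups of strain and medium. Cultures were grown for 24 h in Vogel's minimal medium with 2% sucrose, washed, and held in the test medium for 4 h. The deletion strain Δnit-2 was given tryptophan, isoleucine, proline or nitrate, each at 50 mM with 2% sucrose, or full medium, which holds 25 mM ammonium nitrate and 2% sucrose. The deletion strain Δamn-1 was given tryptophan, isoleucine or proline under the same conditions, or 2 mM mannose with 25 mM ammonium nitrate and no sucrose. The deletion strain Δnit-4 was given nitrate or no nitrogen, and the deletion strain Δnmr full medium or no nitrogen. Each of these groups has 3 libraries. Wild type, strain FGSC 2489, was given those media and also 50 mM ammonium, glutamate or glutamine, 112 mM alanine, 344 mM arginine, 200 mM glycine or no carbon, in 3 to 6 libraries a group. The molar amounts therefore differ between some amino acids, and those of tryptophan, isoleucine, proline, glutamate and glutamine are equal. The labels give the deleted gene of each mutant and no further strain background.

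Tryptophan is a nitrogen source that fungi break down slowly, through kynurenine and anthranilate or by removal of its amino group. NIT-2, the product of nit-2, is a GATA-type activator that turns on genes for secondary nitrogen sources when ammonium and glutamine are scarce. The product of amn-1 is a transcription factor known from this fungus as a regulator of amino acid use. The quinate genes that were set aside serve the breakdown of another aromatic compound.

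The deleted genes were read first. The nit-2 level was 5.14 to 6.61 FPKM in Δnit-2 on tryptophan, against 45.3 to 51.6 FPKM in wild type on tryptophan. NCU00445, taken here as amn-1 from background knowledge since the files give no such symbol, had 4.66 to 5.48 FPKM in Δamn-1 on tryptophan, against 8.62 to 10.4 FPKM in wild type. Both ranges lie apart from wild type, and the remaining signal of NCU00445 in Δamn-1 is not explained by these files. The 27 libraries on tryptophan, isoleucine and proline held an estimated 7490000 to 13010000 fragments each, and mitochondrial genes took 0.0518% to 0.174% of their FPKM. Library numbers below follow the joint table, since 51 of its 86 column numbers differ from the numbers in the labels.

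Summed over the 47 genes, tryptophan libraries carried a far larger part of the transcript pool than any other wild type libraries. The members took 5.43% to 5.83% of all FPKM in the 3 wild type libraries on tryptophan, against 0.124% to 1.27% in the 44 wild type libraries on the other media. Proline was the nearest medium, at 1.12% to 1.27%, and isoleucine followed, at 0.548% to 0.670%. Such sums follow the most abundant members, of which 6 exceeded a mean of 1000 FPKM in wild type on tryptophan. The mitochondrial share splits the media: it was 0.0464% to 0.174% in the 39 libraries on tryptophan, isoleucine, proline, ammonium and nitrate, and 0.00297% to 0.0284% in the 47 libraries on other media. Within the higher range, wild type on isoleucine, proline, ammonium and nitrate gave the members at most 1.27% of FPKM. The rule itself required lower levels in those groups, and a link between this split and the members was not tested. In bulk RNA, more transcript per cell and more cells with the transcript cannot be told apart. The median member level was 6.81 on the log2(FPKM + 1) scale on tryptophan, against 4.26 on isoleucine, 4.15 on proline, 3.23 on ammonium and 2.62 in full medium. Over the 8558 genes tested, the median stayed between 3.72 and 3.86 on these and the other wild type media.

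Mean member levels in wild type on tryptophan were 6.90 to 7510.3 FPKM with a median of 111 FPKM, and 6 members exceeded 1000 FPKM while 23 were under 100 FPKM. The excess over the second highest medium was 1.01 to 3.95 on the log2 scale, with a median of 1.47, and it reached 3 in 4 members. That second medium was proline for 13 members, glycine for 9 and isoleucine for 6. Arginine, mannose and medium without carbon were second for 4 members each, glutamate for 3, ammonium for 2, and nitrate and medium without nitrogen for 1 each. Just inside the threshold were NCU10314 with an excess of 1.01, NCU08721 with 1.05 and NCU05318 with 1.05. Just outside were NCU03783 and NCU00064, both at 1.00 when rounded and below 1 unrounded, and NCU12034 at 0.99. Another 7 genes met the excess and missed the level, among them NCU06427 at 4.95 FPKM.

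**Figure D1:**
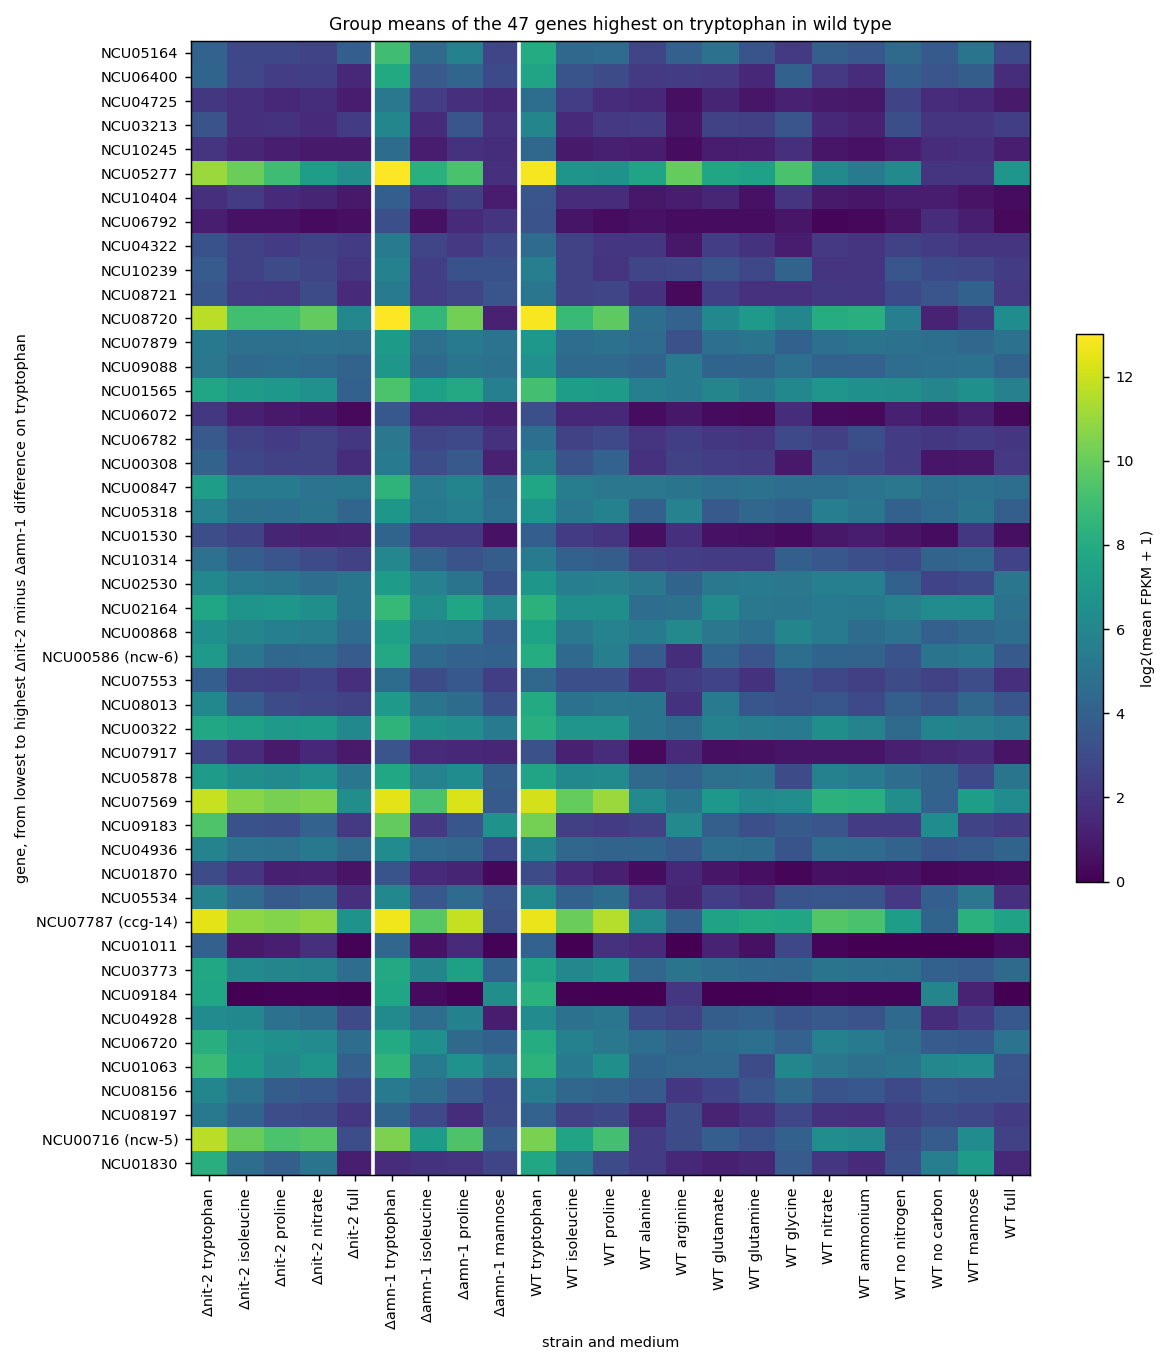
Group mean of each of the 47 genes as log2(mean FPKM + 1), with Δnit-2 groups on the left, Δamn-1 groups in the middle and wild type groups on the right; genes run from the lowest to the highest difference between Δnit-2 and Δamn-1 on tryptophan. The tryptophan column is the brightest of its block for 46 of 47 genes in Δnit-2 and for 46 of 47 in Δamn-1. Over the 8558 tested genes, tryptophan was the highest medium for 2532 in Δnit-2 and 2108 in Δamn-1.

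The most abundant member was NCU08720. It had 6993, 6933 and 8605 FPKM in wild type on tryptophan, against 1022, 696 and 939 FPKM on proline, the second medium, and 2.53 to 3.97 FPKM on mannose. NCU05277 was next, with 9036, 9146 and 3616 FPKM on tryptophan and 998, 1034 and 912 FPKM on arginine, its second medium. The third tryptophan library of NCU05277 lay below the other two, though still above the arginine libraries. The gene ccg-14, which encodes a small secreted protein of the cerato-platanin family, had 5586, 5696 and 7468 FPKM on tryptophan, against 3145, 2970.0 and 2844 FPKM on proline. Its levels in wild type on mannose were uneven, at 394, 71.4 and 466 FPKM. NCU07569 was similar in size, with 3981, 3987 and 5626 FPKM on tryptophan against 2326, 1986 and 2059 FPKM on proline.

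Both cell wall genes were among the members with a symbol. For ncw-5, wild type libraries had 1156, 1222 and 1625 FPKM on tryptophan, against 662, 499.7 and 526 FPKM on proline and 3.07 to 6.16 FPKM in full medium. For ncw-6, they had 223, 258 and 304 FPKM on tryptophan, against 49.6, 39.9 and 47.8 FPKM on proline. In neither gene did the tryptophan and proline libraries overlap, a gap that the rule selected for, since proline was the second medium of both. NCU00716 overlaps its neighbour NCU00715 by 95 bases, and no source used here says whether strand was used in counting, so reads of the overlap cannot be assigned to one gene. The same limit holds for 5 other members that overlap a neighbour, NCU02164, NCU02530, NCU05164, NCU06720 and NCU06792.

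The member with the largest excess over its second medium, NCU09183 at 3.95, lies beside another member, NCU09184 at 2.34, on chromosome III. NCU09183 (277684 to 279201 in the deposited loci) had 1583, 1174 and 1045 FPKM in wild type on tryptophan, against 74.7 to 86.2 FPKM without carbon, its second medium. NCU09184 (281000 to 282805) lies 1798 bases away and had 398, 278 and 255 FPKM on tryptophan, against 54.7 to 62.9 FPKM without carbon. On isoleucine and proline, NCU09184 was at 0.119 FPKM or less in every wild type library and was listed at 0 in 3 of them. NCU09183 was low there, at 3.40 to 4.84 FPKM. Wild type arginine libraries had 59.3 to 79.1 FPKM for NCU09183, which overlaps the levels without carbon, and 2.76 to 3.42 FPKM for NCU09184. Neither has a symbol or a product in the tables used here. The deposited loci name no genome build and equal those of the assembly NC12 for 99.9% of genes.

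The deletion strains were not used to choose the members, so they allow the tryptophan level to be tested in other libraries. In each strain, tryptophan was compared with isoleucine and with proline, with limma on log2(FPKM + 1) and Benjamini-Hochberg adjustment over 8558 genes. A gene was called when the adjusted p was under 0.05 and the difference at least 1 on the log2 scale. All 47 members were tested. Both comparisons within a strain share the tryptophan libraries of that strain, so they are not independent of each other.

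In Δamn-1, nearly all members were again higher on tryptophan. Against isoleucine, 45 of 47 were called higher and 0 lower, beside 5.87% of all tested genes higher and 5.94% lower, and the median member difference was 2.31 on the log2 scale. Against proline, 41 were called higher and 0 lower, beside 5.94% and 6.7% of all tested genes, with a median of 1.99. At an unadjusted limma p under 0.05, 0 members were lower on tryptophan in either Δamn-1 comparison. Tryptophan was the highest of the 4 Δamn-1 media in 46 members, beside 2108 of the 8558 tested genes. It was highest by at least 1 in 41 members, beside 2.34% of tested genes. The 5 members that were highest by less than 1 were NCU03773, NCU04928, NCU07569, ccg-14 and NCU08156, some of them named only after their values were seen.

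In Δnit-2, the direction was the same and the median differences were smaller. Against isoleucine, 25 members were called higher and 0 lower, beside 2.37% of tested genes higher and 2.57% lower, with a median difference of 1.12. Against proline, 32 were called higher and 0 lower, beside 4.58% and 2.9%, with a median of 1.48. At an unadjusted limma p under 0.05, 0 members were lower here too. Tryptophan was the highest of the 5 Δnit-2 media in 46 members, beside 2532 of the 8558 tested genes. It was highest by at least 1 in 23 members, beside 1.43% of tested genes. The exception was NCU10404, which had 2.73, 2.99 and 1.84 FPKM on tryptophan, against 2.86, 6.05 and 2.30 FPKM on isoleucine in Δnit-2, groups that overlap. Its difference of -0.36 was not called (limma adjusted p = 0.23).

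**Figure D2:**
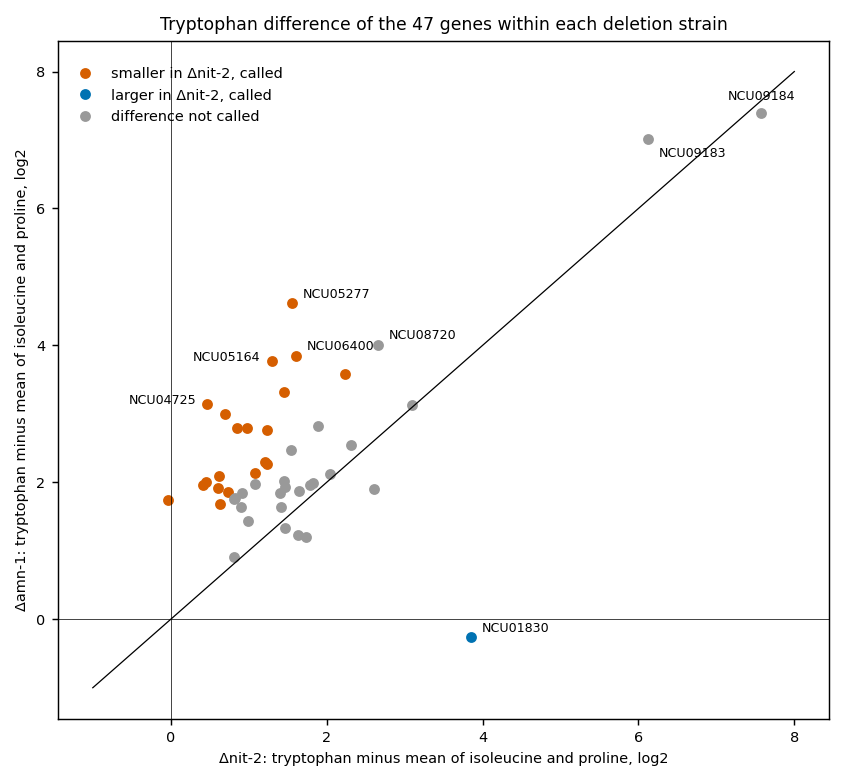
Difference between tryptophan and the mean of isoleucine and proline on the log2(FPKM + 1) scale, Δnit-2 on the horizontal axis and Δamn-1 on the vertical axis, 1 point a gene; colours mark genes whose difference between strains was called, and the diagonal is equality. NCU09183 and NCU09184 lie above 6 on both axes, NCU01830 is alone at the lower right, and 20 genes called smaller in Δnit-2 lie above the diagonal.

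The adjacent pair NCU09183 and NCU09184 was high on tryptophan in both mutants. NCU09183 had 480.2, 557 and 998 FPKM on tryptophan in Δnit-2, against 7.72 to 9.05 FPKM on isoleucine and 6.23 to 10.1 FPKM on proline. In Δamn-1 it had 849, 1384 and 624 FPKM on tryptophan, against 2.67 to 4.38 FPKM on isoleucine and 8.65 to 12.0 FPKM on proline. No tryptophan library of either strain came near an isoleucine or proline library. The difference from isoleucine was 6.08 (SE 0.27, limma adjusted p = 2.3e-28) in Δnit-2 and 7.65 (SE 0.27, limma adjusted p = 4.3e-34) in Δamn-1.

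NCU09184 had 157, 179 and 278 FPKM on tryptophan in Δnit-2 and 189, 275 and 153 FPKM in Δamn-1, while every isoleucine and proline library of both strains was at 0.502 FPKM or less. Its difference from isoleucine was 7.63 (SE 0.18, limma adjusted p = 1e-43) in Δnit-2 and 7.29 (SE 0.18, limma adjusted p = 1.5e-42) in Δamn-1. These sizes depend on the pseudocount, since the lower groups are near 0, and a pseudocount of 0.1 gave 10.83 and 9.14. Between the strains on tryptophan, the difference was -0.01 for NCU09184 (95% interval -0.37 to 0.36, limma adjusted p = 0.98). For NCU09183 it was -0.49 (95% interval -1.02 to 0.05, limma adjusted p = 0.14). The fit takes the spread of a gene from all 27 groups, and NCU09184 was near 0 in many of them. Its SE, interval and p-values can therefore understate the spread on tryptophan, where the SD was 64.7 FPKM in Δnit-2 and 62.9 FPKM in Δamn-1. The narrow interval does not show equal levels. On mannose, the pair had 108, 91.4 and 107 FPKM (NCU09183) and 88.1, 79.5 and 84.1 FPKM (NCU09184) in Δamn-1, against 7.57, 2.30 and 5.87 FPKM and 3.35, 0.310 and 0.819 FPKM in wild type. All Δamn-1 mannose libraries lay above all wild type mannose libraries for both genes, a comparison given without a test.

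The 2 mutants were next compared directly on tryptophan, Δnit-2 against Δamn-1, in the same tryptophan libraries as above. The members summed to 3.25% to 4.09% of FPKM in the Δnit-2 libraries, against 6.61% to 8.48% of FPKM in the Δamn-1 libraries, with wild type between them. These sums follow the most abundant genes. NCU08720 averaged 3182 FPKM in Δnit-2 and 10891 FPKM in Δamn-1, and NCU05277 averaged 2146 and 11140 FPKM. By contrast, ccg-14 averaged 5707 and 6777 FPKM, and ncw-5 had the reverse order, at 3185 and 1374 FPKM. Of the 47 genes, 23 were called lower in Δnit-2, beside 3.63% of all tested genes, and 2 were called higher, beside 5.25%. The median member difference was -0.98 on the log2 scale. All Δnit-2 libraries lay below all Δamn-1 libraries in 30 members, beside 22.6% of tested genes, and these 30 include all 23 that were called lower. The Δamn-1 libraries were uneven over these 23 genes: library 3 was the lowest in 22 of them and library 2 the highest in 18. Without library 3, 25 members were called lower, and without library 2, 22 were. Estimated depth was 9550000 to 11010000 fragments in these 6 libraries.

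**Figure D3:**
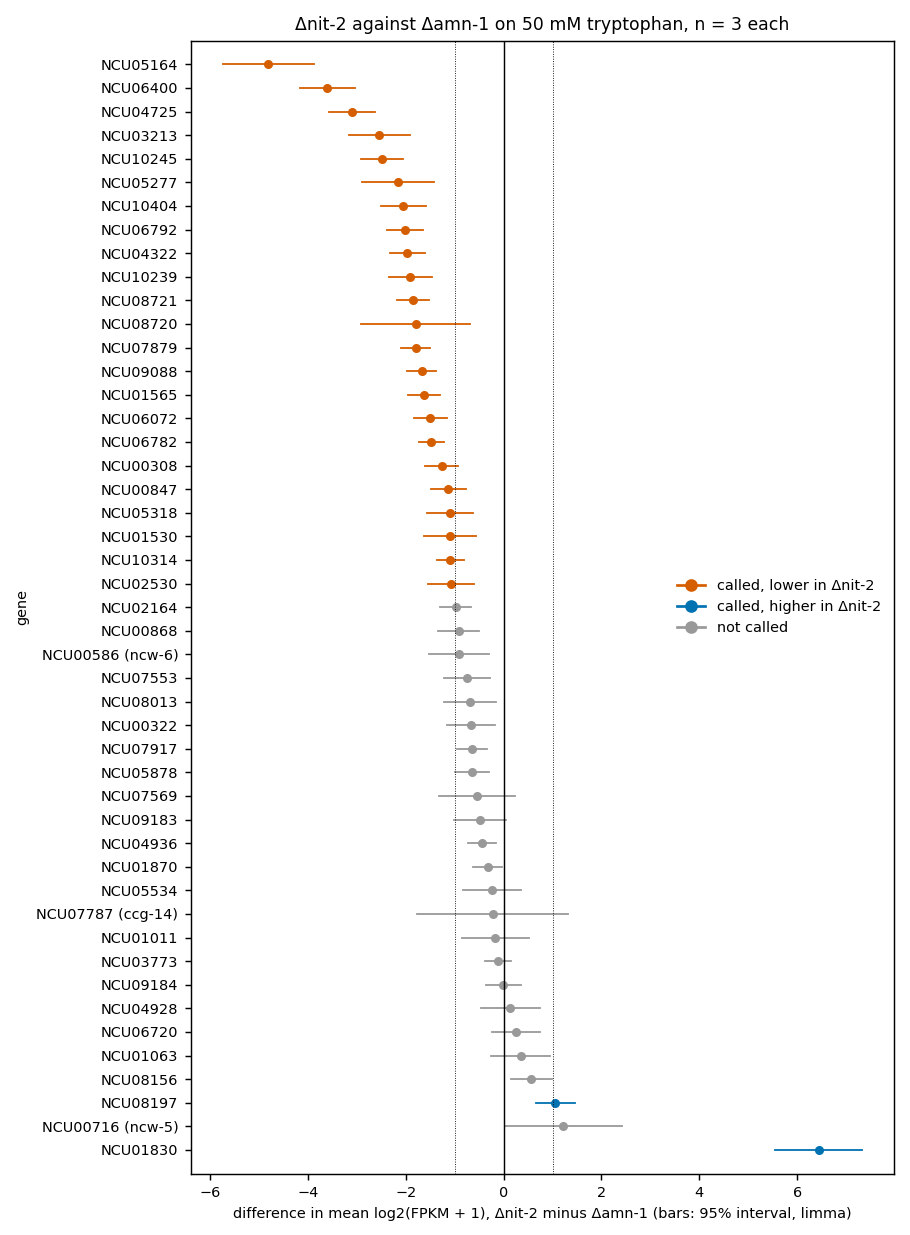
Difference between Δnit-2 and Δamn-1 on 50 mM tryptophan for each of the 47 genes, as the difference in mean log2(FPKM + 1) with its 95% interval from limma, 3 libraries a strain; colours mark called genes and dotted lines the size threshold of 1. The 23 genes called lower run from NCU05164 at -4.81 to NCU02530 at -1.08, and NCU01830 stands apart at 6.44.

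NCU05164 differed the most. It had 13.6, 21.9 and 12.5 FPKM in Δnit-2, against 476, 839 and 248 FPKM in Δamn-1 and 309, 281 and 167 FPKM in wild type, so the Δnit-2 libraries lay far below both. The difference between Δnit-2 and Δamn-1 was -4.81 (SE 0.46, limma adjusted p = 2.4e-13). This gene overlaps NCU05165 by 819 of its 933 bases. NCU05165 was higher in Δnit-2, at 360.4, 379 and 422 FPKM, against 151, 151 and 147 FPKM in Δamn-1 (log2 difference 1.36, limma adjusted p = 0.0071). How reads of the overlap were divided between the genes was not tested, so the values of both, and their opposite directions, are uncertain.

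NCU06400 and NCU04725 followed. NCU06400 had 12.8, 22.0 and 17.4 FPKM in Δnit-2, against 236, 337 and 129 FPKM in Δamn-1 and 211, 233 and 128 FPKM in wild type. Its difference between the mutants was -3.60 (SE 0.28, limma adjusted p = 6e-17). NCU04725 had 3.24, 3.56 and 3.11 FPKM in Δnit-2, against 35.9, 42.3 and 30.1 FPKM in Δamn-1 and 26.9, 23.3 and 23.9 FPKM in wild type. Its difference was -3.10 (SE 0.24, limma adjusted p = 3.1e-17). In both genes the Δnit-2 libraries stand apart below the other strains, and Δamn-1 and wild type overlap in NCU06400 and not in NCU04725.

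In Δnit-2, NCU04725 was also not called between media: 3.24, 3.56 and 3.11 FPKM on tryptophan stood beside 1.90 to 3.13 FPKM on isoleucine (difference 0.33, limma adjusted p = 0.29) and 1.62 to 1.99 FPKM on proline (difference 0.61, limma adjusted p = 0.031, under the size threshold). In Δamn-1, the same gene was 2.85 higher on tryptophan than on isoleucine (limma adjusted p = 5.4e-16). NCU06400 kept a called difference in Δnit-2, of 1.39 from isoleucine (limma adjusted p = 5.7e-05), against 4.15 in Δamn-1 (limma adjusted p = 9.6e-20). Of the 23 members called lower in Δnit-2 than in Δamn-1, 9 were called between media in neither Δnit-2 comparison, 6 in 1 and 8 in both. All 23 were called in both Δamn-1 comparisons, beside 16 of the 22 members with no call between strains and 40 of all 47. Of those 22, 5 were called in neither Δnit-2 comparison and 14 in both. The strain comparison and the media comparisons share the tryptophan libraries, so these counts are not independent of how the 23 were picked.

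The most abundant members were split between the strains. NCU08720 had 3959.8, 3132 and 2453 FPKM in Δnit-2, against 10597, 10313 and 11762 FPKM in Δamn-1, and the groups did not overlap (difference -1.80, SE 0.56, limma adjusted p = 0.007). NCU05277 had 2732, 2038 and 1669 FPKM in Δnit-2, against 11364, 17956 and 4101 FPKM in Δamn-1 (difference -2.16, SE 0.37, limma adjusted p = 2.2e-06). Library 3 of Δamn-1 was low for NCU05277, as library 3 of wild type was. The shared number carries no meaning, since the labels number these libraries 1 and 3. By contrast ccg-14 had 6519.8, 5202 and 5399 FPKM in Δnit-2, against 6796, 5077 and 8459.5 FPKM in Δamn-1, groups that overlap (difference -0.22, 95% interval -1.76 to 1.31). NCU07569 overlapped as well, with 5095, 2939 and 3428 FPKM in Δnit-2 and 4871, 4262 and 7571 FPKM in Δamn-1.

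Among the 6 members above 1000 FPKM, the cell wall gene ncw-5 was the one with its higher mean in Δnit-2. It had 4131, 2946 and 2477 FPKM in Δnit-2, against 1259, 1029 and 1833 FPKM in Δamn-1 and 1156, 1222 and 1625 FPKM in wild type. The Δnit-2 libraries lay above all others, yet the difference from Δamn-1 of 1.22 was not called (SE 0.60, limma adjusted p = 0.095), in a fit that takes the spread of a gene from all 27 groups. On mannose, wild type libraries of ncw-5 had 159, 3.85 and 77.4 FPKM. In a fit on the groups compared alone the difference was called. The other cell wall gene, ncw-6, had 164, 124 and 85.9 FPKM in Δnit-2, against 265, 192 and 231 FPKM in Δamn-1, without overlap, and its difference of -0.91 missed the size threshold. Without library 2 of Δamn-1 the ncw-6 difference was -1.03 and called, and without library 1 of Δnit-2 it was -1.13 and called.

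**Figure D4:**
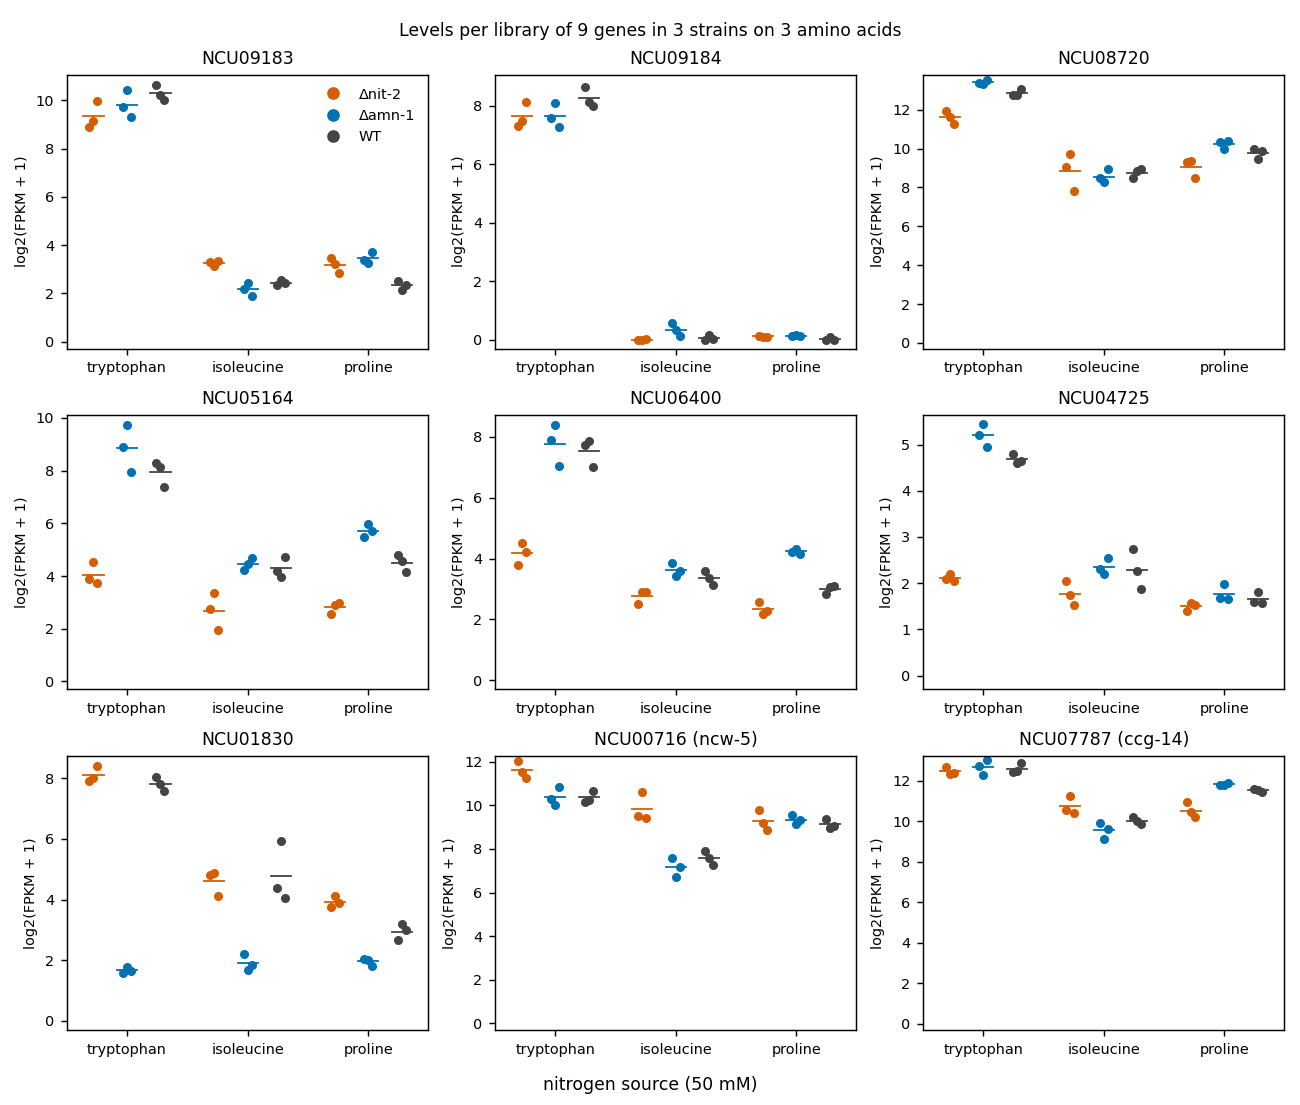
Level of 9 genes in each library as log2(FPKM + 1) on 50 mM tryptophan, isoleucine and proline, with Δnit-2, Δamn-1 and wild type from left to right within a medium; points are libraries and bars the means of 3. NCU09183 and NCU09184 are high on tryptophan in all strains, NCU05164, NCU06400 and NCU04725 are low in Δnit-2, and NCU01830 is low in Δamn-1.

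NCU01830 had by far the largest difference in the other direction. On tryptophan it had 240.2, 259 and 338 FPKM in Δnit-2, against 1.96, 2.46 and 2.15 FPKM in Δamn-1 and 260.3, 224 and 191 FPKM in wild type. The Δamn-1 libraries were thus about as low as those of wild type in full medium, at 1.30 to 2.13 FPKM. The difference between Δnit-2 and Δamn-1 was 6.44 (SE 0.45, limma adjusted p = 4.8e-19). Within Δnit-2, tryptophan stood above isoleucine, at 16.5 to 28.7 FPKM, by 3.50 (SE 0.45, limma adjusted p = 4.4e-09), and above proline, at 12.4 to 16.5 FPKM, by 4.20 (SE 0.45, limma adjusted p = 1.1e-11). Within Δamn-1, NCU01830 had 2.23 to 3.59 FPKM on isoleucine and 2.53 to 3.15 FPKM on proline, and neither difference was called (limma adjusted p = 0.69 and 0.61). On mannose it had 5.24, 6.47 and 4.87 FPKM in Δamn-1, against 251, 18.6 and 167 FPKM in wild type, where library 2 was much lower than the other 2.

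Close to NCU01830 lies NCU01829, which is no member and was chosen after its values were seen. The loci are 2262620 to 2264382 for NCU01830 and 2265232 to 2266407 for NCU01829, on chromosome II, with 849 bases between them. NCU01829 had 82.6, 87.2 and 114 FPKM on tryptophan in Δnit-2, against 2.88, 1.37 and 2.64 FPKM in Δamn-1 and 231, 195 and 146 FPKM in wild type. Of these 3 strains, Δamn-1 again had the lowest libraries, without overlap, and the difference between Δnit-2 and Δamn-1 was 4.88 (SE 0.33, limma adjusted p = 9.1e-20). Its excess on tryptophan in wild type was 0.74, under the threshold, with a mean of 135 FPKM on mannose. NCU01829 lies inside the locus of NCU01828, so its reads may be shared with that gene.

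The second member called higher in Δnit-2 than in Δamn-1 was NCU08197. It had 40.1, 36.9 and 33.0 FPKM in Δnit-2, against 19.4, 14.8 and 17.2 FPKM in Δamn-1 and 15.5, 16.1 and 16.5 FPKM in wild type, with no overlap. The difference of 1.06 (SE 0.20, limma adjusted p = 1e-05) was close to the size threshold. It was 0.97 without library 2 of Δamn-1 and 0.99 without library 1 of Δnit-2, and was not called in either case.

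Whether the tryptophan difference itself changed with strain was tested as an interaction, the difference between Δnit-2 and Δamn-1 of tryptophan minus the mean of isoleucine and proline. It was called smaller in Δnit-2 for 20 of 47 members, beside 1.57% of tested genes, and larger for 1, beside 2.17%. The median was -0.93. Among those smaller in Δnit-2, NCU05277 had the largest, at -3.06 (SE 0.45, limma adjusted p = 9.3e-07), followed by NCU04725 at -2.67 (SE 0.29, limma adjusted p = 3.1e-10) and NCU05164 at -2.47 (SE 0.57, limma adjusted p = 0.0011). For NCU05277, the Δnit-2 isoleucine libraries were themselves high, at 909 to 1346 FPKM, against 109.8 to 590.0 FPKM in Δamn-1. The size of its interaction moved with 1 library, to -3.66 without library 3 of Δamn-1 on tryptophan, and the call was kept whichever library was left out. NCU01830 was the 1 member with a larger difference in Δnit-2, 4.11 (SE 0.55, limma adjusted p = 6.7e-08). The interaction of ncw-6 was -1.36 (limma adjusted p = 0.0074), while those of ncw-5 and ccg-14 were -0.09 and -0.16 and not called.

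Set beside wild type, which is a description because the rule used wild type on tryptophan, the mutants differed in how many members shifted. All Δnit-2 libraries on tryptophan lay below all wild type libraries in 33 members, beside 22.9% of tested genes, and above them in 3, beside 28.0%, and 11 overlapped. In Δamn-1, 1 member lay wholly below wild type, beside 9.55% of tested genes, 9 lay wholly above, beside 10.7%, and 37 overlapped. The single gene below was NCU01830. On the log2 scale the median member stood -0.82 from wild type in the Δnit-2 libraries, and the Δamn-1 median was 0.19. In the 12 libraries of Δnit-4 and Δnmr, which were given nitrate, full medium or no nitrogen and never tryptophan, all 47 members were below the lowest wild type tryptophan library. The rule had already required wild type to be lower on those media, and the share of all tested genes was not taken. This count is therefore no result about Δnit-4 or Δnmr.

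Some members were also higher in Δnit-2 on nitrate, where the 47 genes summed to 1.01% to 1.21% of FPKM, against 0.294% to 0.377% in wild type on nitrate. The gene ccg-14 had 1549, 2061 and 1903 FPKM in Δnit-2 on nitrate, against 827, 619.9 and 786 FPKM in wild type. NCU08720 had 744, 944 and 1168 FPKM in Δnit-2 on nitrate, against 285, 238 and 270.4 FPKM in wild type, and ncw-5 had 603, 778 and 897 FPKM, against 109.7, 59.5 and 79.6 FPKM. None of these groups overlapped, and no test is given since wild type nitrate belongs to the rule. The sums follow the most abundant members, which include these genes. Other members had a lower mean in Δnit-2 than in wild type on nitrate. Among them were NCU02530, at 23.7 against 47.4 FPKM, and NCU00308, at 4.87 against 7.29 FPKM. Members were not counted by direction on nitrate, and the share of all tested genes was not taken. In full medium the members took 0.117% to 0.147% in Δnit-2 and 0.135% to 0.198% in wild type.

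On the map, 4 of the 47 members sit beside another member, as the pairs NCU09183 with NCU09184 and NCU08720 with NCU08721. NCU08720 (3792534 to 3794040) and NCU08721 (3794980 to 3798612) are on chromosome II with 939 bases between them. NCU08721 is much the lower, with 29.8, 32.7 and 36.5 FPKM in wild type on tryptophan. Both were called lower in Δnit-2 than in Δamn-1, NCU08721 by -1.85 (SE 0.16, limma adjusted p = 1.1e-14). The next gene, NCU08722, met the excess and missed the level of the rule at 4.34 FPKM, and NCU09185, next to NCU09184, had 52.0, 46.1 and 35.1 FPKM in wild type on tryptophan, against a mean of 5.74 FPKM on ammonium. NCU09185, chosen after its values were seen, was also higher on tryptophan than on isoleucine by 2.21 in Δnit-2 (limma adjusted p = 2.1e-16) and by 3.19 in Δamn-1 (limma adjusted p = 3.6e-24). Chromosome II holds 9 of the 47 members, 19.1%, against 10.9% of tested genes, a difference that was not tested. The median gene length was 1763 bases in members and 2273 bases in tested genes.

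**Figure D5:**
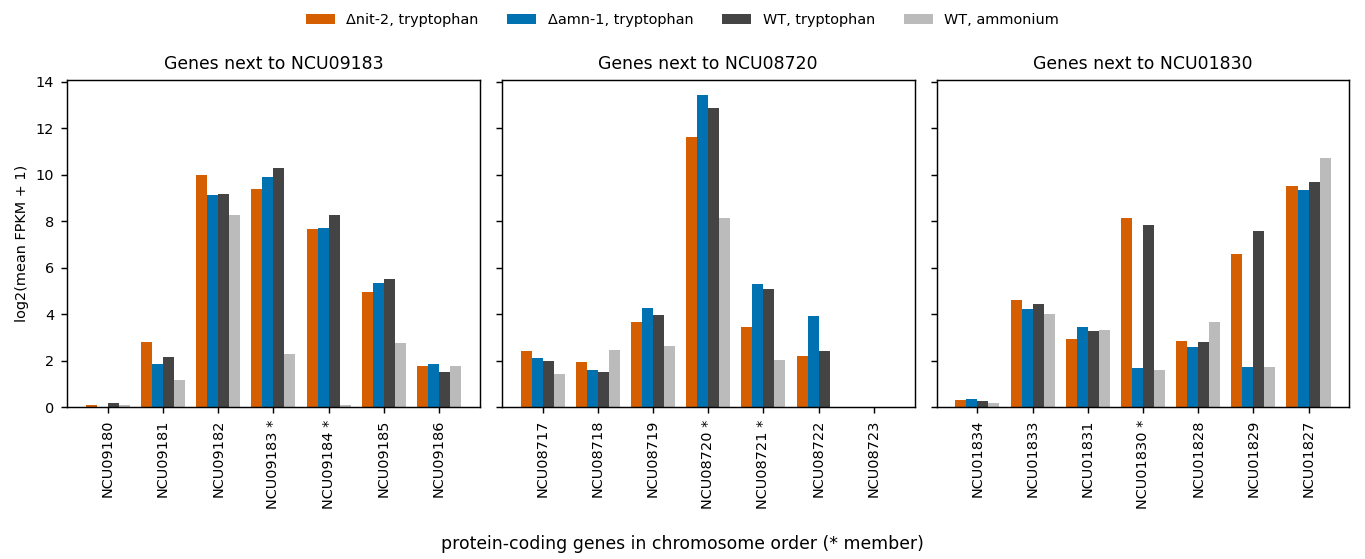
Mean level as log2(mean FPKM + 1) of the genes around NCU09183, NCU08720 and NCU01830 in chromosome order, with members marked by an asterisk; bars are Δnit-2, Δamn-1 and wild type on tryptophan and wild type on ammonium. NCU09183 and NCU09184 are high in all 3 strains on tryptophan and low on ammonium, while NCU01830 and NCU01829 are high in Δnit-2 and wild type only.

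No gene of 6 lists of known symbols was a member. The aromatic amino acid synthesis list had 10 genes tested, and none was called between tryptophan and isoleucine or proline in Δnit-2. In Δamn-1, aro-6, which encodes an enzyme of the first step of the aromatic pathway, was lower on tryptophan than on isoleucine by -1.79 (limma adjusted p = 9.8e-07), and aro-7, another gene of that step, was higher on tryptophan than on proline by 1.04 (limma adjusted p = 0.013). Between the strains, trp-3, which encodes tryptophan synthase, averaged 237 ± 25 FPKM in Δnit-2 and 103 ± 23 FPKM in Δamn-1 (SD, n = 3 each), and its difference of 1.21 was called (limma adjusted p = 0.00074). The other called gene of this list was aro-6, higher in Δnit-2 by 1.19. None of the 7 symbols listed for tryptophan breakdown and nicotinate was found in the tables, so that route could not be followed by name.

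Of 3 uptake genes tested, mtr, the permease gene for neutral and aromatic amino acids including tryptophan, averaged 391 ± 11 FPKM in Δnit-2 and 631 ± 108 FPKM in Δamn-1 on tryptophan (SD, n = 3 each) and was not called. The gene pmg, for the general amino acid permease, averaged 5.64 ± 0.25 FPKM in Δnit-2 and 42.4 ± 7.3 FPKM in Δamn-1 on tryptophan (SD, n = 3 each), lower in Δnit-2 by -2.70 (limma adjusted p = 7e-19). In Δnit-2 it was also lower on tryptophan than on isoleucine, by -2.37 (limma adjusted p = 8.3e-16), which is the opposite direction from the members. Of 3 oxidation genes tested, lao, the L-amino acid oxidase gene, averaged 45.3 ± 14 FPKM in Δnit-2 and 541 ± 375 FPKM in Δamn-1 (difference -3.38, limma adjusted p = 8.7e-09). Within Δnit-2, lao was higher on tryptophan than on isoleucine, by 1.20 (limma adjusted p = 0.032), and than on proline, by 1.36 (limma adjusted p = 0.011). Within Δamn-1, it was lower on tryptophan than on proline, by -1.62 (limma adjusted p = 0.0021), and its difference of 0.77 from isoleucine was not called (limma adjusted p = 0.16). The interaction of lao was called, at 1.71 (limma adjusted p = 0.024). Of 8 regulators of nitrogen and amino acid metabolism, nit-2 itself was the 1 called between the strains. Of 3 genes of branched-chain and proline metabolism, leu-4, for the first enzyme of leucine synthesis, was called, at 85.1 ± 2.2 FPKM in Δnit-2 and 32.1 ± 7.1 FPKM in Δamn-1 (difference 1.40, limma adjusted p = 2.1e-05).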

How the data were processed

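The authors deposited FPKM per gene, once for each sample and once in a joint table of all samples; the submitters' processing notes name HISAT2 2.1.0 beside Cufflinks 2.2.1 and Cuffnorm 2.2.1. No source used here gives the genome build, strand or counting options. Depth was estimated from the deposited FPKM confidence bounds as 6890000 to 19110000 fragments per library. In some genes the estimated fragments did not follow FPKM, so depth may be understated. In wild type, ncw-5 had 6415 fragments summed over the tryptophan libraries and 5618 over the proline libraries, at means of 1334 and 563 FPKM. Only 78.3% of estimates under 20 fragments came within 0.05 of a whole number, so no count test was run.

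Members were found in the joint table, whose columns were matched to groups by name. Differences were fitted in limma 3.58.1 (R version 4.3.3), taking log2(FPKM + 1), with 1 mean per group over all 86 libraries, for 8558 genes with at least 1 FPKM in 3 or more libraries, with a trended prior and Benjamini-Hochberg adjustment. A fold on this scale understates the change of low genes. Intervals are 95%. The fit was tested on simulated data for 8558 genes: in the layout of tryptophan against isoleucine in Δnit-2, 98 of 100 changes of 1.5 log2 and 100 of 100 of 3 log2 were called, with 1 false call. The simulation used normal noise with the same spread in all groups for a gene, and placed no change in the lowest genes. Its counts therefore do not cover genes whose spread differs between groups, such as ncw-5. All 100 pairs of replicates differed by more than sampling noise.

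The rule for naming took members with a symbol, the 10 most abundant, the 6 with the largest excess, those nearest the threshold, up to 3 called members in each direction of each comparison, and listed genes. Members and lists were chosen with earlier results of these data known. The labels call the libraries biological replicates, so p-values rest on a spread between cultures. That spread is taken for each gene over all 27 groups, not from the compared groups alone. Where the compared groups are the more uneven ones, the p-values can understate their spread. An example is NCU05277 in Δamn-1 on tryptophan, with a mean of 11140 and an SD of 6930 FPKM. Alternatives tried were the pseudocount, the filter, median-ratio scaling, the per-sample values, a fit on the compared groups, a replicate block and leaving out each library. No sequences are shown, as no sequence tables were used here.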

Additional observations from a re-analysis of the deposited data

Results flagged for a closer look

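The difference between strains in the tryptophan response was called for 21 members, as Δnit-2 minus Δamn-1 of tryptophan minus the mean of isoleucine and proline (limma, log2 scale, adjusted over 8558 genes). NCU01830 was the one with a positive value, at 4.11. The strongest negative values were those of NCU05277 at -3.06, NCU04725 at -2.67, NCU05164 at -2.47, NCU10245 at -2.30 and NCU06400 at -2.24. NCU04322 at -1.95, NCU03213 at -1.87, NCU10239 at -1.81, NCU10404 at -1.78, NCU07879 at -1.56, NCU06792 at -1.55 and NCU08721 at -1.53 followed. The smallest were NCU09088 at -1.48, ncw-6 (NCU00586) at -1.36, NCU00322 at -1.31, NCU00868 at -1.13, NCU06782 at -1.10, NCU06072 at -1.05, NCU01565 at -1.05 and NCU10314 at -1.04. Of these, NCU00868, NCU06782, NCU06072, NCU01565 and NCU10314 lost the call when 1 library was left out; for all but NCU06072, library 2 of Δamn-1 on tryptophan was such a library, and NCU06072 lost it without library 1 of that group, among others.

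Single libraries stood apart from their group in 5 of 93 checks, 5.38%, where chance gives about 1 in 20. These checks were too few to cover every group of every member, so the rate is not one for all libraries. All 5 came from wild type in full medium or without nitrogen, the groups with 5 and 6 libraries. In wild type in full medium, library 4 had 129 FPKM for NCU07569 (others 57.3 to 70.3 FPKM), 131 FPKM for NCU08720 (others 57.3 to 77.5 FPKM) and 1.56 FPKM for NCU01011, which was listed at 0 in the others. NCU05164 had 9.81 FPKM in library 5 of that group (others 4.56 to 5.96 FPKM). Without nitrogen, NCU04928 had 27.7 FPKM in wild type library 1 (others 17.3 to 20.8 FPKM). All 5 values lie below the tryptophan libraries of the same gene in wild type.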

How the results depend on the processing

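Under every alternative run, the number of members called stayed within 1.5 times the value given above in each of the 6 comparisons, and no named difference changed sign. Between the strains, 25 members were called in the report, 25 to 27 under other settings and 23 to 27 with 1 library left out. For the interaction these were 21, then 20 to 22 and 18 to 25. For tryptophan against isoleucine they were 25, then 19 to 28 and 24 to 30 in Δnit-2, and 45, then 43 to 45 and 45 in Δamn-1. Against proline they were 32, then 30 to 34 and 30 to 34 in Δnit-2, and 41, then 39 to 42 and 39 to 41 in Δamn-1. The rule itself found 51 members in the per-sample values, 56 with a pseudocount of 0.1 and 49 to 54 without 1 wild type tryptophan library.

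The labels give same-numbered libraries nothing in common beyond the number, and their deviations correlated at -0.39 to 0.27. Libraries with different numbers were not set beside these values, so whether same-numbered libraries shared handling was not tested. With the replicate number as a block, which was fitted on the per-sample values of the compared groups alone, 27 members were called between the strains, 20 for the interaction, 19 and 31 against isoleucine and proline in Δnit-2, and 45 and 41 in Δamn-1.

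Some calls were lost when 1 library was left out: 5 of 25 between the strains, 5 of 21 for the interaction, 5 of 25 and 3 of 32 against isoleucine and proline in Δnit-2, and 0 of 45 and 2 of 41 in Δamn-1. Over all alternatives, 16 of the 25 isoleucine calls in Δnit-2 held. Between the strains, NCU00847, NCU02530, NCU08197 and NCU10314 lost the call without library 2 of Δamn-1 on tryptophan, and NCU01530 without library 2 of Δnit-2. Without library 1 of Δnit-2 on tryptophan NCU08197 lost it too, and without library 3 NCU02530. In Δnit-2, NCU05164 lost its isoleucine call without isoleucine library 3 or tryptophan library 2, and its proline call without proline library 1 or tryptophan library 2. NCU07569 lost its isoleucine call without isoleucine library 3 or tryptophan library 1, NCU08156 without tryptophan library 3 and NCU08197 without isoleucine library 1. NCU05318 lost its proline call without proline library 3 or tryptophan library 1. In Δamn-1, NCU02164 and NCU07553 lost their proline calls without tryptophan library 1, among others. The ncw-5 difference between tryptophan and isoleucine in Δnit-2 (1.75) was not called without isoleucine library 1 (1.58) or 3 (1.54) or tryptophan library 1 (1.54). The ccg-14 difference from proline in Δnit-2 (1.94) was not called without proline library 2 or 3 or any 1 tryptophan library, at 1.77 to 2.00, and its difference from isoleucine (1.73) was called only in the fits on the compared groups, with and without the block (1.70 and 1.73). The cause was not tested. The 95% interval of that proline difference runs over 0.40 to 3.47. Depth recovered from confidence bounds covers counting only.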
